A study of Mus musculus with 48 samples.

Results

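Epididymal white adipose tissue (eWAT), the large visceral fat pad beside the testis of the male mouse, was compared between 4 hepAGT-/- mice (KO) and 4 hepAGT+/+ mice (WT) housed at thermoneutrality. The 8 libraries were chosen by their labels (tissue, genotype and housing) out of 48 in the series. The series also holds liver and brown adipose tissue (BAT) and mice kept at room temperature. The KO mice had a deletion of angiotensinogen (Agt) in hepatocytes, and the WT mice were their littermates. All 8 were male, ate a Western diet with 21% milk fat and 0.2% cholesterol over 12 weeks, and lived at 30 °C. The room-temperature groups set beside them, 4 KO and 4 WT, had the same genotypes and diet but lived at 20 to 22 °C. The promoter that drove the deletion, the strain background and the age of the mice are not given in the sources used here. The labels number each library as a biological replicate, which are KO 21, 3, 4 and 5 and WT 23, 6, 7 and 8, and values below are given in that order.

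Angiotensinogen is the only known precursor of the angiotensin peptides. Renin and angiotensin-converting enzyme cut it in turn to angiotensin II, which acts on blood vessels, kidney and adrenal gland, and the liver is the main source of the protein in blood. Fat cells also make angiotensinogen. White fat stores triglyceride in adipocytes and secretes hormones such as leptin, and between the adipocytes lie blood vessels, fibroblast-like progenitors, macrophages and lymphocytes. When a fat pad expands on a rich diet, macrophages gather around its adipocytes, take up lipid and switch on lysosomal genes, and the matrix around the cells is remodelled. Thermoneutral housing removes most of the cold stress that a mouse meets at ordinary room temperature. The comparison asks how this fat pad differs between mice with and without the hepatocyte deletion of angiotensinogen in that setting.

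Each library held 28.7 to 43.7 megacounts, with medians of 38.1 in KO and 33.4 in WT. Levels are given as CPM, which are counts per megacount of a library after edgeR's TMM factors (trimmed mean of M values). Changes are log2 fold changes, KO minus WT, from edgeR's quasi-likelihood test. A gene was called where its p, adjusted by Benjamini-Hochberg over the 18933 genes tested, was under 0.05. The fat pad's own markers were present, since the 12 mature adipocyte markers summed to 19409 to 26717 CPM in KO and 18425 to 21512 CPM in WT, with the groups overlapping. In liver of the same housing, Agt ran from 147 to 248 CPM in KO and from 380 to 613 CPM in WT, so the groups did not overlap where the gene had been deleted. Agt RNA was still present in KO liver, at a mean of 199 CPM against 498 CPM in WT. In a fit of the 24 libraries of 3 tissues at thermoneutrality, which share 1 estimate of spread per gene, that liver difference was -1.32 on the log2 scale, with an adjusted p of 0.353. Agt varied widely within other groups of that fit. It ran from 8.98 to 134 CPM in eWAT of WT and from 0.0636 to 9.44 CPM in BAT of KO. Both spreads enter this p. The 10 hepatocyte markers summed to between 30.0 and 1685 CPM in the eWAT libraries, with the highest sum in WT replicate 8. The 16 epididymis markers summed to 46.4 CPM in KO replicate 21 and to at most 11.5 CPM in the other 7 libraries, with Lcn9 and Cst11 at 0 in all 8. The 8 testis and sperm markers summed to 84.5 CPM in WT replicate 6 and to at most 7.56 CPM elsewhere. In such bulk tissue, fewer cells of a type and less RNA per cell cannot be told apart.

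In eWAT of KO mice, 78 genes fell and 33 rose, which is 0.412% and 0.174% of the genes tested (0.586% together). At an unadjusted p under 0.05, 7.2% were lower and 6.55% higher. Counts from the gene lists below are to be set beside these shares. The lists were chosen with earlier results of these data known, so such counts are not independent of the data. Genes of macrophages and of antigen presentation, matrix genes and the secreted proteins Serpinf1 and Sparc were among those that fell. The thrombin cofactor Thbd, the insulin receptor Insr and the glucocorticoid receptor Nr3c1 were among those that rose. The median change was -0.92 among the genes that fell and 0.78 among those that rose, against 0.01 over all genes. At least a 2-fold change was seen in 35 of the genes that fell and 11 of those that rose. In 109 of the 111 called genes the 4 KO libraries lay wholly to one side of the 4 WT libraries, as did 9.51% of all genes tested.

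These calls lay close to the threshold. Adjusted p-values were under 0.03 for 2 genes and ran up to 0.0481 in the rest, and the number called depended on single libraries. It was 87 without KO replicate 4, 95 without WT replicate 23 and 238 without WT replicate 8. It was 5 (4 of them higher) without KO replicate 21, 2 without KO replicate 3, and 1 without KO replicate 5, WT replicate 6 or WT replicate 7, and in these 5 fits no gene of the 27 lists described below was called. In a fit of the 8 libraries alone edgeR called 0 genes, with 2868 at an unadjusted p under 0.05, against 2603 in the fit of all 16 eWAT libraries. DESeq2 called 713, 237 higher and 476 lower, among them all 111. Each of the 111 genes kept its sign and an unadjusted p under 0.05 in all 8 fits that left out a library and in the fit of the 8 libraries alone. They had been chosen at a much lower p on libraries that these fits share, so this outcome was largely set by the choice.

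**Figure D1:**
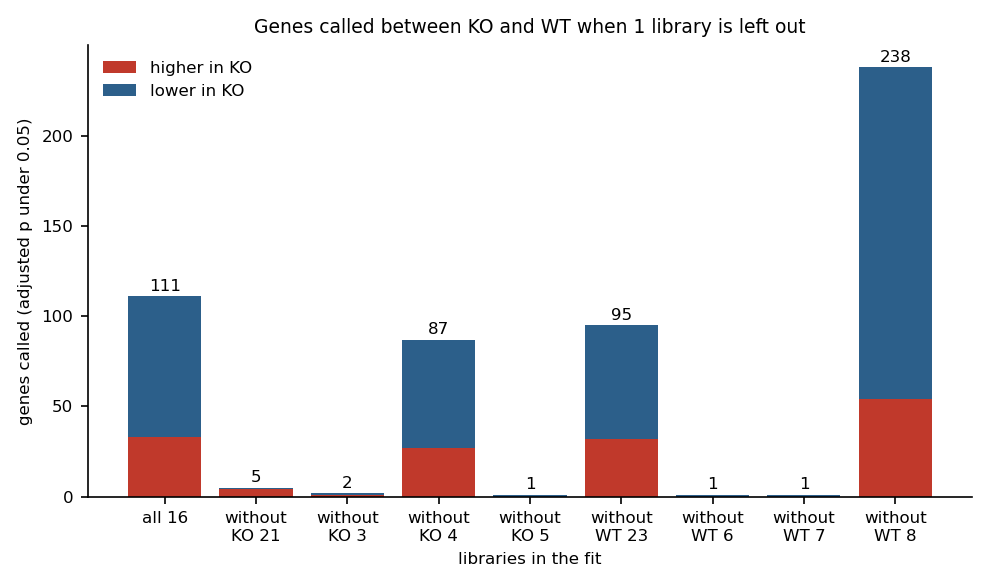
Number of genes called between KO and WT (vertical axis, stacked as higher and lower in KO) in the fit of all 16 eWAT libraries and after leaving out each of the 8 compared libraries (horizontal axis). The count is 111 with all libraries, 238 without WT replicate 8, and 5 or fewer when any 1 of 5 other libraries is left out.

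The gene with the lowest adjusted p was Serpinf1 (ENSMUSG00000000753), which encodes pigment epithelium-derived factor, a serpin that adipocytes and stromal cells secrete; it was singled out after its values were seen. Its level was 140, 185, 214 and 106 CPM in KO and 347, 386, 370 and 422 CPM in WT. All KO libraries thus lay well below all WT libraries, and means were 161 ± 47.7 CPM (SD, n = 4) in KO and 381 ± 31.8 CPM in WT. The log2 change was -1.24 (SE 0.16, adjusted p 0.00877). Serpinf1 was called in each of the 8 fits without 1 library and in 12 of 13 alternatives in all, with changes from -1.41 to -1.08. The exception was the fit of the 8 libraries alone (adjusted p 0.0679).

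Other secreted proteins at high levels fell as well. Sparc, a matricellular glycoprotein that binds collagen and is counted among the adipokines, stood at 3803, 4888, 5671 and 2958 CPM in KO. In WT its levels were 7825, 8101, 7733 and 8123 CPM, a narrow band above every KO library. The change was -0.88 (SE 0.17, adjusted p 0.0401). Serpina3n, an acute-phase protease inhibitor, stood at 380, 548, 603 and 333 CPM in KO and at 911, 1158, 1103 and 670 CPM in WT, again without overlap (log2 change -1.04, adjusted p 0.0452, SE 0.22). KO replicate 5 was lowest in Serpinf1, Sparc and Serpina3n.

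**Figure D2:**
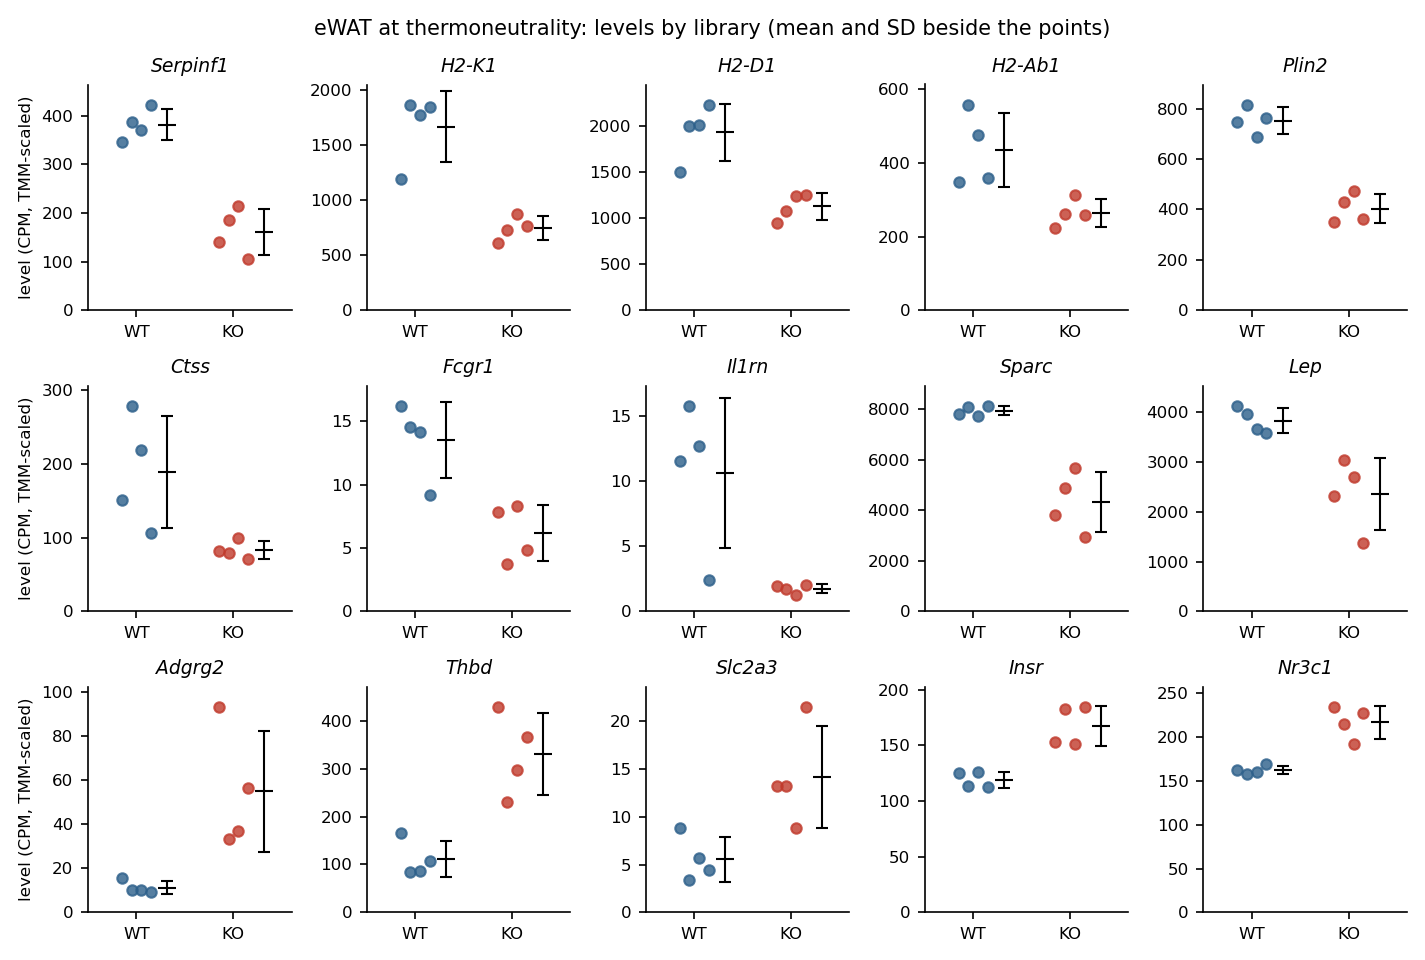
Levels (vertical axes, CPM, TMM-scaled, each starting at 0) of 15 genes in the 4 WT (blue) and 4 KO (red) eWAT libraries at thermoneutrality; points are libraries, and the bar beside them is the mean with its SD. The 2 groups are separate in each panel, with Lep the single gene of the 15 that was not called and WT replicate 8 close to the KO libraries for Il1rn and Ctss.

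The classical class I genes H2-K1 and H2-D1 fell in KO. Classical class I molecules show peptides from inside the cell to CD8 T cells and are made by nearly all cells. H2-K1 (ENSMUSG00000061232) stood at 608, 730, 873 and 767 CPM in KO and at 1191, 1864, 1773 and 1844 CPM in WT. WT replicate 23 was the lowest WT library and still lay above every KO library (log2 change -1.16, adjusted p 0.0397, SE 0.19). H2-D1 (ENSMUSG00000073411) stood at 946, 1075, 1237 and 1250 CPM in KO and at 1497, 1999, 2005 and 2225 CPM in WT, also without overlap (log2 change -0.78, adjusted p 0.0401, SE 0.15). Class I genes are near-identical copies of each other, so how reads were split between them is uncertain. Tapbp, which loads peptides onto class I, and Psmb10, a subunit of the immunoproteasome, were called too, at -0.56 and -0.61, and were picked out after their values were seen.

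Of the class II presentation list, 3 of 20 genes fell, against 0.412% of all genes, and none rose. Class II molecules show peptides taken up from outside, mainly on macrophages, dendritic cells and B cells. H2-Ab1, a class II beta chain, stood at 222, 260, 313 and 257 CPM in KO and at 348, 556, 475 and 357 CPM in WT (log2 change -0.72, adjusted p 0.0435, SE 0.15). H2-Eb1, the other beta chain, stood at 238, 280, 304 and 270 CPM in KO and at 379, 531, 512 and 351 CPM in WT (log2 change -0.70, adjusted p 0.0401, SE 0.13). WT replicates 23 and 8 were the WT libraries nearest to KO in both genes. Ctss, the cathepsin that trims the class II invariant chain, stood at 82.4, 78.8, 99.7 and 71.4 CPM in KO and at 151, 278, 219 and 106 CPM in WT (log2 change -1.18, adjusted p 0.0448, SE 0.25). The median over the list was -0.38, and 8 of its genes were lower at an unadjusted p under 0.05, against 7.2% of all genes. The macrophage marker sum, given with the macrophage genes, was lower in the same libraries, and its part in this list was not tested.

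The promoters of the class I pair and of H2-Eb1 are shown because these neighbours on chromosome 17 fell in the same libraries and because short control elements of such genes are well known. The sequences are the 250 bases before the transcript start in RefSeq (build GRCm38.p6), read on the strand of the gene, and capitals mark the elements found in a search of each window on both strands. In H2-K1 (chr17:34000348-34000597, minus strand) and H2-D1 (chr17:35262844-35263093, plus strand) these are the NF-kB element GGGATTCCC and the interferon-response element GTTTCACTT. In H2-Eb1 (chr17:34305617-34305866, plus strand) they are the X box CTAGCAAC and the Y box CTGATTGG. H2-D1 holds the letters of the Y box as well, on the opposite strand.
H2-K1: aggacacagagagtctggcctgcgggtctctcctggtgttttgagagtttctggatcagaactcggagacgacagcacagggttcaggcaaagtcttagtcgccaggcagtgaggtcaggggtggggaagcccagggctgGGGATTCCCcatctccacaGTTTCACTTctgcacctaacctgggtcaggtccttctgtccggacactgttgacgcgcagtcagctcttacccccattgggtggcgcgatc
H2-D1: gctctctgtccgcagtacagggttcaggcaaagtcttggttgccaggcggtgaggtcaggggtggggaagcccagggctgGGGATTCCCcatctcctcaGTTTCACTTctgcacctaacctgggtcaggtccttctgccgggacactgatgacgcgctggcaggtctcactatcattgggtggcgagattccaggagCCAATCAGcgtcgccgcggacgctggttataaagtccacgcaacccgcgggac
H2-Eb1: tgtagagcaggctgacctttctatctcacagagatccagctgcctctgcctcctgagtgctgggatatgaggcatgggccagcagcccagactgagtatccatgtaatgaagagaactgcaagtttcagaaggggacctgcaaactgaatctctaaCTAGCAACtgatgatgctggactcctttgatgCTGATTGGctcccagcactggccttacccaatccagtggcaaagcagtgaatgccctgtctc

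The NF-kB element began 110 bases upstream of the start in H2-K1 (the first of 2 starts in the table) and 170 bases in H2-D1, and the interferon element began 91 and 151 bases upstream. Among 32851 windows of the same length of 250 bases, 99 (0.301%) held the first and 111 (0.338%) held the second. The X box began 94 bases and the Y box 62 bases upstream in H2-Eb1, and the Y box letters in H2-D1 lay 53 to 46 bases upstream. Of all windows 1.13% held the X box and 3.83% the Y box. A window was matched for 12547 of the tested genes, for 58 of the 78 genes that fell and for 25 of the 33 that rose. The Y box was held by 6.03% of the tested genes, by 2 of the 58 (3.45%) and by 3 of the 25 (12.0%). GAGGAAGT, a form of the site of the macrophage factor PU.1, was held by 3.07% of the tested genes, by 2 of the 58 (3.45%) and by none of the 25. These matches are a description of the sequences.

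In the macrophage list 3 of 24 genes fell, against 0.412% of all genes, and none rose. The median was -0.64, with 19 changes negative and 5 positive. At an unadjusted p under 0.05, 13 were lower, against 7.2% of all genes, and 2 were higher, against 6.55%. C1qb, a chain of the complement protein C1q that tissue macrophages secrete, stood at 128, 135, 154 and 133 CPM in KO and at 233, 289, 234 and 171 CPM in WT (log2 change -0.75, adjusted p 0.0435, SE 0.16). Fcgr1, the high-affinity IgG receptor, stood at 7.86, 3.72, 8.29 and 4.87 CPM in KO and at 16.2, 14.6, 14.1 and 9.20 CPM in WT (log2 change -1.13, adjusted p 0.0452, SE 0.25). Neither gene overlapped between the groups. The summed level of the 8 macrophage markers, which include C1qb, was 794, 760, 825 and 767 CPM in KO and 998, 1360, 1174 and 882 CPM in WT, so it was lower in every KO library. Singly, C1qa, C1qb, C1qc and Itgam were lower in every KO library, while Adgre1, Cd68, Csf1r and Mrc1 overlapped between the groups. Csf1r was at 123 CPM in WT replicate 8, below the 139 to 148 CPM of the KO libraries. Of the 8 markers, 6 were lower at an unadjusted p under 0.05, and the part of this sum in the changes of single genes was not tested.

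The list for lipid-associated macrophages, the lipid-laden cells of expanded fat, had the lowest median of the 27 lists, -0.83. In it 3 of 24 genes fell, against 0.412% of all genes, and 23 had a negative change. At an unadjusted p under 0.05, 16 were lower, against 7.2% of all genes. Plin2, which coats lipid droplets in macrophages and adipocytes, stood at 351, 428, 472 and 362 CPM in KO and at 746, 814, 685 and 762 CPM in WT. The gap between the groups was wider than the range within either of them (log2 change -0.90, adjusted p 0.0397, SE 0.16). Ctsl, a lysosomal cysteine protease, stood at 583, 736, 845 and 560 CPM in KO and at 1254, 1365, 1327 and 1092 CPM in WT (log2 change -0.89, adjusted p 0.0401, SE 0.17). Ctsk, a collagen-cutting cathepsin, stood at 27.4, 24.0, 37.5 and 15.6 CPM in KO and at 52.0, 50.7, 50.4 and 61.6 CPM in WT (log2 change -1.04, adjusted p 0.0401, SE 0.21). Adipocytes and fibroblasts make Plin2, Ctsl and Ctsk too. Ctsd, the lysosomal aspartic protease, did not pass the test (log2 change -0.79, adjusted p 0.0608).

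Further genes of immune cells had some of the largest changes at low levels. Fcgr4, an activating IgG receptor of myeloid cells, stood at 1.46, 1.92, 1.66 and 1.58 CPM in KO and at 9.42, 7.89, 7.73 and 3.83 CPM in WT (log2 change -2.12, adjusted p 0.0437, SE 0.46). Tlr13, an endosomal receptor for bacterial RNA, fell by 1.87 (adjusted p 0.0401), and Slc15a3, a lysosomal peptide transporter, fell by 1.86 (adjusted p 0.0397). Cd300c2, a myeloid receptor in a cluster of similar genes, fell by 1.54 (adjusted p 0.0422). In all 4 genes WT replicate 8 was the lowest WT library. Spi1, which encodes PU.1, was called at -0.78 and was picked out after its values were seen.

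In the list of inflammatory cytokines and chemokines 1 of 34 genes fell, against 0.412% of all genes, and 31 had a negative change (median -0.63). That gene was Il1rn, the antagonist of the interleukin 1 receptor, at 1.95, 1.76, 1.23 and 1.99 CPM in KO and at 11.5, 15.7, 12.7 and 2.41 CPM in WT. WT replicate 8 was close to the KO libraries, and the other 3 WT libraries were far above them (log2 change -2.61, adjusted p 0.0401, SE 0.52). In the T and cytotoxic lymphocyte list 1 of 27 genes fell, against 0.412% of all genes, and the median was -0.76. That gene, the interleukin 7 receptor Il7r, stood at 2.44, 2.81, 3.23 and 1.99 CPM in KO and at 8.01, 15.8, 14.6 and 4.03 CPM in WT (log2 change -2.02, adjusted p 0.0401, SE 0.41). The summed level of the 8 T cell markers was 11.0 to 13.5 CPM in KO and 19.8 to 27.2 CPM in WT, without overlap. Singly, only Trac was lower in every KO library, at 0.734 to 3.02 CPM against 3.31 to 9.00 CPM in WT. Cd3e, Cd3d, Cd3g, Cd8a, Cd4, Lck and Cd2 overlapped between the groups. Of the 8 markers, 3 were lower at an unadjusted p under 0.05. The part of this sum in the Il7r result was not tested. Il13ra2, a decoy receptor for interleukin 13, stood at 0.244, 1.44, 0.831 and 0.253 CPM in KO and at 1.96, 20.4, 14.4 and 5.48 CPM in WT (log2 change -3.92, adjusted p 0.0422, SE 0.79). No gene of the B cell and plasma cell list (24 tested, median -0.31) or of the interferon-stimulated list (34 tested, median -0.09) was called.

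**Figure D3:**
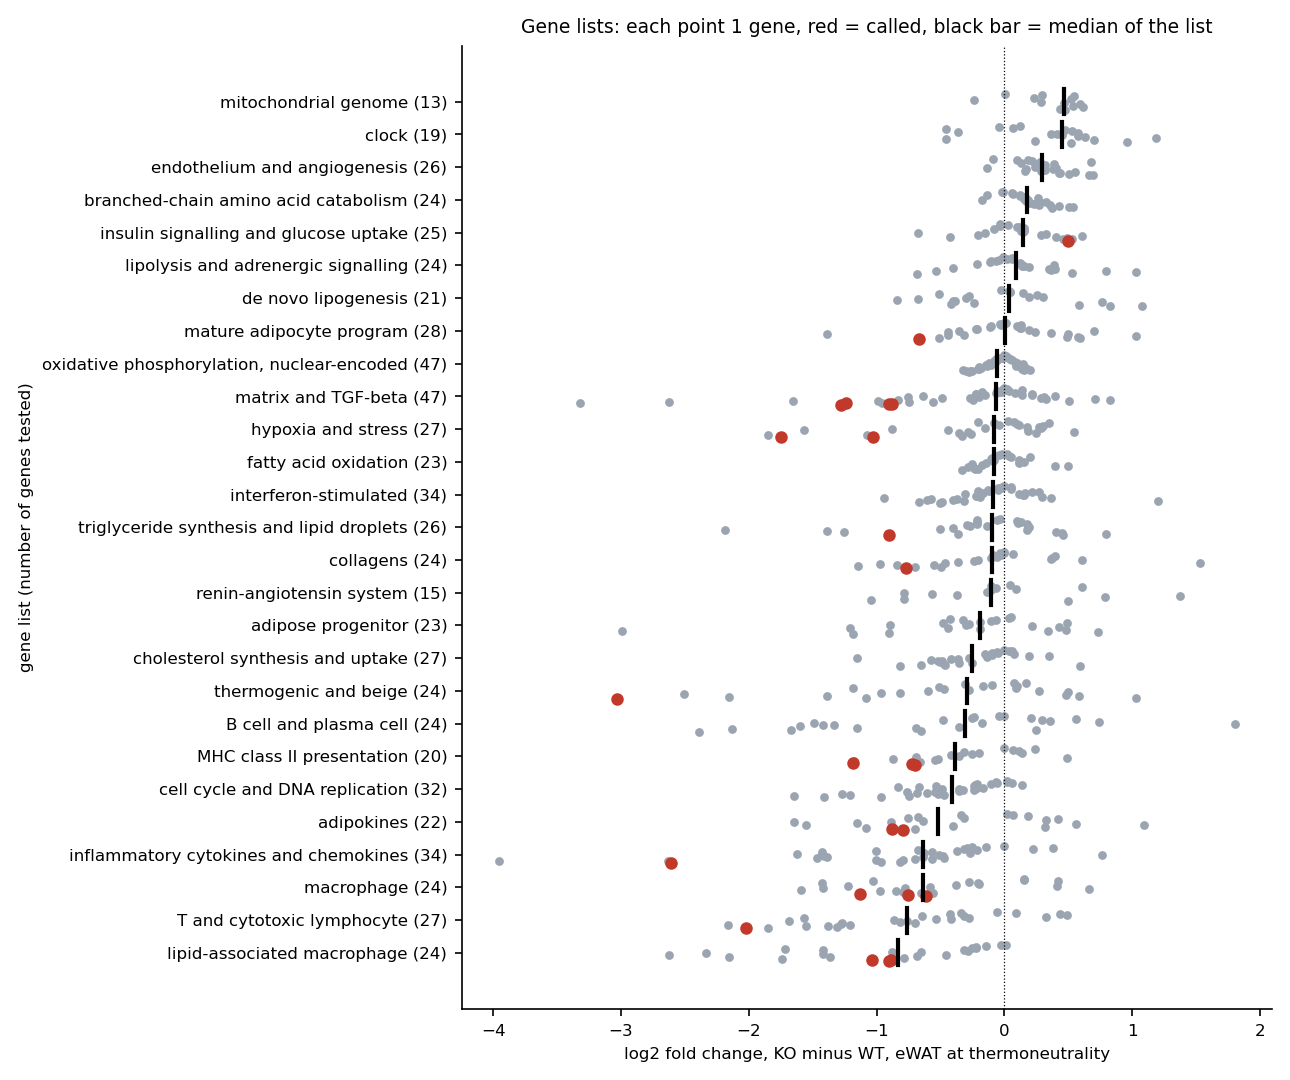
Log2 fold change, KO minus WT (horizontal axis), of each tested gene of the 27 lists (vertical axis, with the number tested); called genes are red and the black bar is the list's median. The lists of macrophage, T lymphocyte and cytokine genes have the lowest medians, from -0.83 to -0.63, and those of the mitochondrial genome and the clock have the highest, 0.47 and 0.45.

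In the matrix and TGF-beta list 4 of 47 genes fell, against 0.412% of all genes, and none rose. The median was -0.07, with 31 changes negative and 16 positive. At an unadjusted p under 0.05, 11 genes were lower, against 7.2% of all genes, and 1 was higher, against 6.55%. Besides Sparc the called genes were Bgn, Lox and Adam12. Bgn, a small leucine-rich proteoglycan, stood at 219, 285, 304 and 161 CPM in KO and at 410, 374, 449 and 579 CPM in WT (log2 change -0.90, adjusted p 0.0401, SE 0.17). Lox, which cross-links collagen, stood at 77.0, 101, 84.6 and 66.9 CPM in KO and at 159, 153, 138 and 330 CPM in WT (log2 change -1.24, adjusted p 0.0466, SE 0.26). WT replicate 8 was the highest library for both. Adam12, a metalloprotease of remodelling tissue, stood at 15.1, 11.8, 19.3 and 12.7 CPM in KO and at 32.8, 39.0, 33.9 and 37.5 CPM in WT (log2 change -1.28, adjusted p 0.0397, SE 0.23). In the collagen list Col5a2, a chain of the fibril-forming type V collagen, was the 1 called gene of 24 (log2 change -0.77, adjusted p 0.0401, SE 0.15), with 152, 148, 193 and 126 CPM in KO and 188, 278, 243 and 350 CPM in WT, where KO replicate 4 lay above WT replicate 23. The list's median was -0.10, with 18 changes negative and 6 positive. At an unadjusted p under 0.05, 7 of its genes were lower, against 7.2% of all genes. The 10 progenitor and fibroblast markers summed to 1878 to 2249 CPM in KO and 1805 to 3062 CPM in WT, and the groups overlapped.

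Leptin did not pass the test. Lep, the adipocyte hormone that tracks fat mass, stood at 2319, 3040, 2687 and 1365 CPM in KO and at 4118, 3957, 3650 and 3583 CPM in WT. All KO libraries were below all WT libraries, but the log2 change of -0.70 (SE 0.19) had an adjusted p of 0.0847, and 1 of 13 alternatives called it (DESeq2, adjusted p 0.00668). Adipoq, which encodes adiponectin, overlapped between the groups at 2633 to 4228 CPM in KO and 3065 to 3682 CPM in WT (log2 change 0.02, adjusted p 0.981). Of 22 adipokine genes 2 fell, Sparc and Metrnl, against 0.412% of all genes, and none rose. Metrnl, a secreted protein made in fat and macrophages, stood at 19.1, 18.3, 24.0 and 21.0 CPM in KO and at 26.3, 43.9, 38.1 and 34.8 CPM in WT (log2 change -0.80, adjusted p 0.0401, SE 0.16).

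The lists of genes that make and store fat had at most 1 called gene each. In the mature adipocyte list 1 of 28 genes fell, against 0.412% of all genes, and the median was 0.00. That gene was Cebpb, an early transcription factor of adipocyte differentiation that is also induced in inflammation, at 32.2, 22.7, 29.2 and 25.7 CPM in KO and 46.4, 41.3, 40.5 and 46.4 CPM in WT (log2 change -0.67, adjusted p 0.0422, SE 0.14). Cebpb was called in 0 of the 8 fits without 1 library. Plin2 was the 1 called gene of 26 in the triglyceride and lipid droplet list, again against 0.412% of all genes. None was called among 21 genes of de novo lipogenesis, where Scd1, the main fatty acid desaturase, had a log2 change of -0.02 (SE 0.14, adjusted p 0.966) and Fasn, fatty acid synthase, one of 0.30 (SE 0.24, adjusted p 0.632). The lists of lipolysis (24 tested), fatty acid oxidation (23), nuclear-encoded oxidative phosphorylation (47) and cholesterol synthesis and uptake (27) had no called gene either, and their medians lay between -0.25 and 0.09. In the insulin signalling list 1 of 25 genes rose, against 0.174% of all genes. At an unadjusted p under 0.05, 7 of its genes were higher, against 6.55% of all genes, and 1 was lower, against 7.2%. The called gene, Insr, stood at 153, 182, 151 and 184 CPM in KO and at 125, 113, 126 and 112 CPM in WT (log2 change 0.49, adjusted p 0.0435, SE 0.11).

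In the thermogenic and beige list 1 of 24 genes fell, against 0.412% of all genes. Otop1, a proton channel found in brown and inflamed fat, stood at 0.0976, 0.502, 0.756 and 0.380 CPM in KO and at 2.35, 4.39, 2.44 and 5.12 CPM in WT (log2 change -3.03, adjusted p 0.0401, SE 0.63). The 8 brown fat markers, Otop1 among them, summed to 14.6 to 22.1 CPM in KO and 22.1 to 46.6 CPM in WT, and the sums overlapped by a small margin. Skeletal muscle markers, 10 in number, summed to 19.1 to 22.7 CPM in KO and to 26.2 to 46.2 CPM in WT without overlap. The largest part of this sum was Acta1, at 10.6 to 14.4 CPM in KO and 15.6 to 19.0 CPM in WT. Ckm, Tnnt3 and Mylpf were highest in WT replicate 8, at 2.75, 4.87 and 5.16 CPM, and Eno3 overlapped between the groups. The part of the muscle markers in these results was not tested. In the hypoxia and stress list 2 of 27 genes fell, against 0.412% of all genes. Hmox1, which degrades heme and is strong in macrophages, stood at 25.3, 28.1, 36.5 and 24.0 CPM in KO and at 48.5, 75.3, 59.0 and 50.0 CPM in WT (log2 change -1.03, adjusted p 0.0397, SE 0.18). Atf3, a stress-induced transcription factor, fell by 1.75 (SE 0.37, adjusted p 0.0435), from 8.17 to 28.0 CPM in WT to 4.20 to 5.19 CPM in KO.

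The largest decrease was in Tph2, which encodes the tryptophan hydroxylase of serotonin neurons. It stood at 1.41, 6.07, 7.61 and 1.01 CPM in KO and at 21.5, 174, 148 and 105 CPM in WT, so WT replicate 23 was far below the other WT libraries and still above KO (log2 change -4.79, adjusted p 0.0452, SE 0.94). Bdnf, a nerve growth factor, stood at 0.781, 2.21, 0.705 and 0.886 CPM in KO and at 4.61, 5.08, 5.68 and 3.30 CPM in WT (log2 change -2.02, adjusted p 0.0435, SE 0.43). Kcnj14, an inward-rectifier potassium channel, stood at 8.20, 19.9, 13.1 and 5.69 CPM in KO and at 26.4, 41.6, 43.1 and 71.1 CPM in WT (log2 change -1.95, adjusted p 0.0401, SE 0.38). The 6 nerve and Schwann cell markers summed to 44.8 to 60.2 CPM in KO and 53.0 to 113 CPM in WT, and the groups overlapped.

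Within the renin-angiotensin list no gene of the 15 tested was called. Agt itself (ENSMUSG00000031980) stood at 213, 132, 133 and 204 CPM in KO and at 134, 58.9, 62.1 and 8.98 CPM in WT. The groups overlapped, since WT replicate 23 lay just above the lower KO libraries, and WT replicate 8 was far below all others (log2 change 1.37, adjusted p 0.284, SE 0.54). Because the deletion was in hepatocytes, Agt in fat does not check the genotype. Lnpep, the aminopeptidase that binds angiotensin IV, had a change of 0.50 (SE 0.12, adjusted p 0.0576), with 235 to 277 CPM in KO and 177 to 185 CPM in WT.

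Among the genes that rose, the clearest was Adgrg2, an orphan adhesion receptor best known from the epididymis. It stood at 93.4, 33.6, 37.0 and 56.5 CPM in KO and at 15.7, 10.0, 10.2 and 9.32 CPM in WT. The highest level was in KO replicate 21, the library with the highest epididymis sum, and the other 3 KO libraries were also above all WT libraries. The log2 change was 2.29 (SE 0.30, adjusted p 0.0150). Without KO replicate 21 it was 1.91 and still called, and the call was lost in 3 of the 8 fits without 1 library.

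Thbd, Nr3c1 and Adcyap1r1 were among the others that rose. Thbd, thrombomodulin, the endothelial cofactor through which thrombin activates protein C, stood at 428, 231, 297 and 367 CPM in KO and at 165, 85.2, 85.7 and 108 CPM in WT (log2 change 1.58, adjusted p 0.0401, SE 0.29). Of the 26 genes of the endothelial list none was called, but 24 had a positive change, with a median of 0.30. The 8 endothelial markers summed to 427 to 501 CPM in KO and to 277 to 478 CPM in WT, with WT replicate 8 inside the KO range, and their part in the Thbd result was not tested. Nr3c1, the glucocorticoid receptor, stood at 234, 214, 191 and 228 CPM in KO and at 163, 158, 160 and 169 CPM in WT, without overlap (log2 change 0.42, adjusted p 0.0465, SE 0.09). Adcyap1r1, the receptor of the peptide PACAP, stood at 26.4, 43.4, 47.6 and 50.4 CPM in KO and at 17.8, 20.8, 23.1 and 16.0 CPM in WT (log2 change 1.11, adjusted p 0.0401, SE 0.22).

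Further genes that rose act in transport, metabolism and signalling. Slc2a3, the glucose transporter GLUT3, stood at 13.2, 13.2, 8.77 and 21.4 CPM in KO and at 8.76, 3.36, 5.64 and 4.42 CPM in WT, so KO replicate 4 and WT replicate 23 nearly met (log2 change 1.35, adjusted p 0.0401, SE 0.27). Sfxn1, the mitochondrial serine transporter, stood at 195, 149, 156 and 276 CPM in KO and at 136, 85.1, 81.6 and 101 CPM in WT (log2 change 0.94, adjusted p 0.0402, SE 0.19). Pygl, a glycogen phosphorylase, Sik2, a salt-inducible kinase of adipocytes, and Atp2b4, a plasma membrane calcium pump, rose by 0.49, 0.51 and 0.62 with adjusted p-values of 0.0407, 0.0466 and 0.0475. The 8 libraries separated by genotype in all 3. Pygl, Sik2 and Atp2b4 were called in 2, 0 and 2 of the 8 fits without 1 library.

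Transcription regulators and genes of less known role in fat completed the largest increases. Hif3a, a member of the hypoxia-inducible factor family, stood at 5.27, 7.44, 3.25 and 7.43 CPM in KO and at 1.57, 1.11, 1.67 and 1.12 CPM in WT (log2 change 2.09, adjusted p 0.0437, SE 0.45). Hoxa5, a homeobox gene of body position, rose by 1.19 (adjusted p 0.0452), and Zbtb26, a zinc finger protein, by 1.37 (adjusted p 0.0435). Tmem88b rose by 1.94 (adjusted p 0.0397), Dennd2d by 1.82 (adjusted p 0.0452), Dnah3, an axonemal dynein, by 1.70 (adjusted p 0.0397) and the transcript AC087871.1 by 0.94 (adjusted p 0.0397). KO replicate 5 was the highest library in each of these 4, and stood far above the rest for Tmem88b (21.5 CPM against 8.09 to 9.68 CPM in the other KO libraries) and Dennd2d (51.2 CPM against 16.1 to 20.0 CPM).

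**Figure D4:**
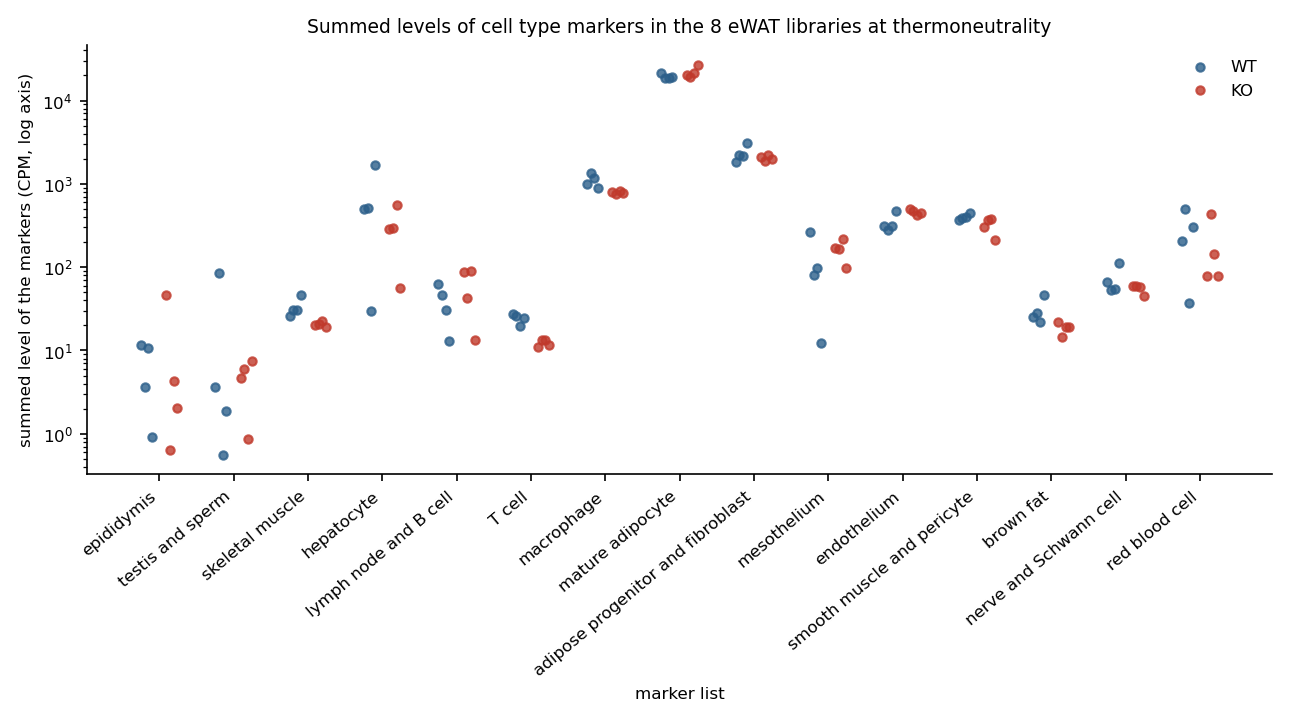
Summed levels (vertical axis, CPM of the plain library totals, log scale) of 15 lists of cell type markers (horizontal axis) in the 4 WT (blue) and 4 KO (red) eWAT libraries at thermoneutrality; each point is 1 library. Macrophage, T cell and skeletal muscle sums are lower in all KO libraries, adipocyte sums overlap, and single libraries stand out for epididymis (KO replicate 21, 46.4 CPM) and testis (WT replicate 6, 84.5 CPM).

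In eWAT at room temperature edgeR called 821 genes between KO and WT (4.34% of those tested, 1.2% higher and 3.13% lower). The 8 libraries there are separate, but both contrasts came from the same fit of all eWAT libraries and share its estimate of spread per gene. Of the 78 genes that fell at thermoneutrality 77 were lower at room temperature too, against 50.3% of all genes tested, and 39 were called lower. Of the 33 that rose 30 were higher and 8 were called higher. No gene was called in opposite directions. The 47 shared calls are 42.3% of the genes called at thermoneutrality and 5.72% of those called at room temperature. Because the estimate of spread is shared, calls at thermoneutrality and at room temperature are not independent of each other. Serpinf1 (-1.61, adjusted p 0.000225), Sparc (-1.27, adjusted p 0.00192), Tph2 (-5.20, adjusted p 0.0167), Il1rn (-2.81, adjusted p 0.00809) and Nr3c1 (0.56, adjusted p 0.00358) were called at both. The class I genes were not called at room temperature, where H2-K1 was at -0.55 (adjusted p 0.106) and H2-D1 at -0.40 (adjusted p 0.141). Fcgr4 was at -0.35 (adjusted p 0.768) and Plin2 at -0.47 (adjusted p 0.108).

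Whether the genotype difference itself depended on housing was tested by the interaction. edgeR called 0 genes, with 1439 at an unadjusted p under 0.05, and DESeq2 called 10. Among the 111 genes called at thermoneutrality 28 had an unadjusted interaction p under 0.05, against 7.6% of all genes; they had been chosen by one part of the same contrast. For AC087871.1 the interaction was 0.94 (adjusted p 0.553), with a change of 0.01 at room temperature. For H2-K1 it was -0.61 (adjusted p 0.630), for Fcgr4 -1.77 (adjusted p 0.581) and for Atp2b4 0.66 (adjusted p 0.553). Lep fell by 1.58 at room temperature (adjusted p 0.00101), and its interaction of 0.88 had an adjusted p of 0.553. None of these differences between housing temperatures passed the test. Across all 18933 genes the changes at the 2 temperatures had a Pearson correlation of 0.157 and a Spearman correlation of 0.243, over genes that are not independent replicates.

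**Figure D5:**
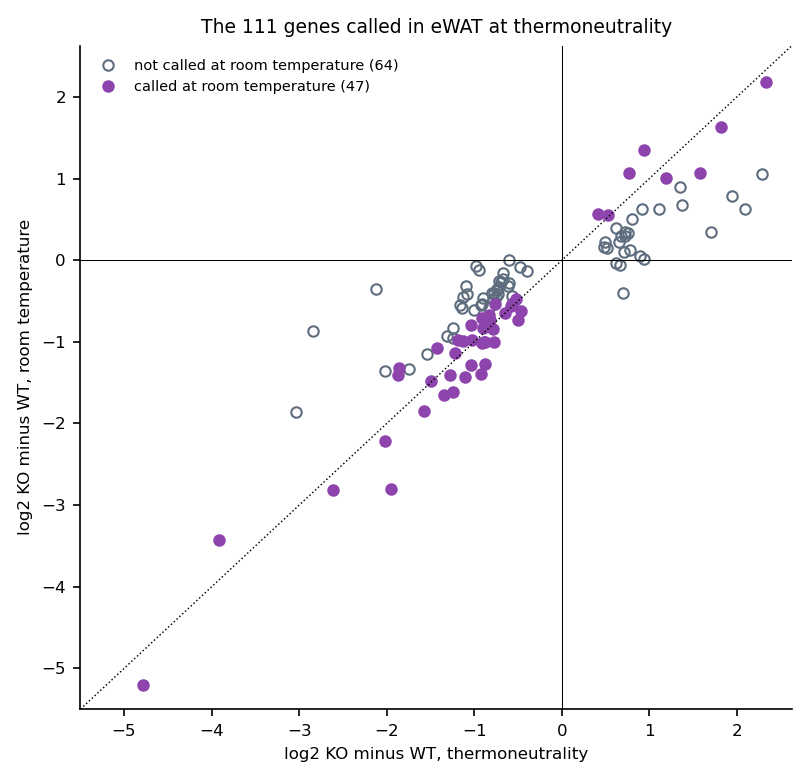
Log2 fold change, KO minus WT, at thermoneutrality (horizontal axis) and at room temperature (vertical axis) for the 111 genes called in eWAT at thermoneutrality; filled points are the 47 also called at room temperature and the dotted line marks equal changes. Since the genes were chosen on the horizontal axis, points nearer to 0 on the vertical axis are not a test of a smaller change.

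Liver and BAT of the same housing were set beside eWAT in a fit over 24 libraries. The difference in genotype effect between eWAT and liver was called for 412 of 20374 genes (2.02%). This count was 1189 by DESeq2, 242 with no filter on low counts and 14 with a block for the replicate number. Whether a number shared between tissues marks the same animal is not stated. The count also depended on single libraries. It fell to 147, 109 and 115 without eWAT KO replicate 21, 3 or 5, and to 60 and 226 without eWAT WT replicate 6 or 7. It was 102, 236 and 205 without liver KO replicate 4 or liver WT replicate 1 or 6. Of the 111 genes called in eWAT 30 were among these, a share that the choice of the genes on the eWAT difference raises. In liver, where 4.24% of genes were called, 1 of the 111 was called in the same direction and 10 in the opposite direction. H2-Ab1 rose by 1.40 in liver (adjusted p 0.0410) against its fall in eWAT, and the difference of -2.13 had an adjusted p of 0.0422. Sfxn1 fell by 0.63 in liver (adjusted p 0.0391), a difference of 1.56 (adjusted p 0.00785). Ctss, C1qb, Il1rn, Fcgr4, Tlr13, Slc15a3 and Insr also differed between eWAT and liver. For Fcgr4 the difference was -3.48 (adjusted p 0.00785) and for Insr 0.86 (adjusted p 0.0222). Scd1 was at -1.07 in liver (adjusted p 0.00150) and at -0.02 in eWAT, a difference of 1.04 (adjusted p 0.0244).

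Between eWAT and BAT the genotype effect differed in 1 gene of 20374 (0.00491%), which was none of the 111, with 1564 genes at an unadjusted p under 0.05 and 59 called by DESeq2. In BAT itself 4 genes were called (0.0196%), again none of them among the 111. Scd1 was 1 of these 4, at -0.99 (adjusted p 0.0273), and its difference between eWAT and BAT was 0.96 (adjusted p 0.259). Of the 78 genes that fell in eWAT, 59 were lower in BAT (median -0.38), and of the 33 that rose 16 were higher (median -0.04). The median over all genes in BAT was -0.0055. Serpinf1 was at -0.39 in BAT (adjusted p 0.909) and Thbd at 0.23 (adjusted p 1.00).

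Several other lists stood to one side of 0 without a called gene. In the branched-chain amino acid list 20 of 24 genes had a positive change (median 0.18), 8 of them at an unadjusted p under 0.05, against 6.55% of all genes. Aldh6a1, a valine-degrading dehydrogenase, was at 462, 499, 480 and 745 CPM in KO and 335, 364, 360 and 447 CPM in WT (log2 change 0.54, adjusted p 0.116). In the cell cycle list 28 of 32 genes had a negative change (median -0.41), 9 of them at an unadjusted p under 0.05, against 7.2% of all genes. Pcna, the clamp of DNA polymerase, was at -0.17 (adjusted p 0.650). In the clock list 15 of 19 genes were positive (median 0.45), with Tef at 0.70 (adjusted p 0.419) and Nr1d1 at 0.52 (adjusted p 0.326). Genes of the mitochondrial genome were positive in 12 of 13 (median 0.47), and their share of all counts was 3.69% to 5.05% in KO and 3.14% to 4.31% in WT, with the groups overlapping.

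The remaining marker sums overlapped between the groups. Mesothelium summed to 98.7 to 217 CPM in KO and 12.2 to 264 CPM in WT. The sum of 12.2 CPM was in WT replicate 8, and the next lowest WT library, replicate 6, was at 80.4 CPM. Lymph node and B cell markers summed to 13.5 to 90.4 CPM in KO and 12.8 to 63.4 CPM in WT. Smooth muscle and pericyte markers summed to 212 to 376 CPM in KO and 364 to 443 CPM in WT, and red blood cell markers to 78.2 to 434 CPM and 37.2 to 505 CPM. Of the 23 progenitor genes tested none was called (median -0.19), and Ebf1, an early factor of the adipocyte lineage, was at 0.34 (adjusted p 0.300). Further list genes named for their level, none of them called, were Plin1, the adipocyte droplet coat (0.19, adjusted p 0.549), Hmgcs1 of cholesterol synthesis (-0.65, adjusted p 0.158), Abca1, the cholesterol exporter (-0.05, adjusted p 0.917), Ighm, the heavy chain of IgM (-0.18, adjusted p 0.802), Gbp2, an interferon-induced GTPase (-0.19, adjusted p 0.591), and Vegfa, a growth factor of vessels (0.28, adjusted p 0.616).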

How the data were processed

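RNA of snap-frozen tissue was sequenced in paired-end mode from mRNA libraries, per the labels. The values are raw counts per gene as deposited by the authors; the submitters' processing notes name fastp, STAR 2.6.1d, featureCounts 1.5.0-p3 and the builds GRCm38 and mm10. The annotation release and the strand setting are not given in the sources used here, so reads of overlapping or antisense genes cannot be told apart. Of 56748 identifiers 52073 (91.8%) had a symbol in the reference gene table, and these held at least 96.5% of the counts in the 8 libraries.

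The 16 eWAT libraries were fitted together with 1 mean per group in R 4.3.3 with edgeR 4.0.16 (TMM, filterByExpr with a minimum count of 10, robust quasi-likelihood F tests, two-sided, Benjamini-Hochberg over all genes tested, threshold 0.05). KO and WT shared no replicate numbers here. Tissues were compared over the 24 libraries at thermoneutrality. Alternatives were RLE scaling, no filter, at least 1 CPM in 4 libraries, DESeq2 1.42.0, the 8 libraries alone, each library left out, and a replicate block between tissues. The procedure was tested on simulated data.

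The members, the 27 gene lists and the 15 marker lists were chosen with earlier results of these data known. Named genes were Agt, Lep and Adipoq, up to 12 per direction by size of change and 6 by level (called, mean of at least 1 CPM, no overlap, no Gm, Rik or receptor segment), and from each list up to 4 called genes or, with none called, 2 by level. Some of these are not reported here. Separate animals are assumed from the labels' biological replicates. Promoter windows came from RefSeq.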

Additional observations from a re-analysis of the deposited data

Results flagged for a closer look

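In 11 of the 190 groups of 4 libraries examined, 1 library lay apart from the other 3 by more than Dixon's 95% critical value allows. Chance flags about 1 in 20 groups, or 9.5 of these 190. KO replicate 5 was high for Tmem88b (21.5 CPM), Dennd2d (51.2 CPM), Aldh6a1 (745 CPM) and Hibadh (336 CPM), and KO replicate 3 was high for Bdnf (2.21 CPM). WT replicate 8 was high for Ctsk (61.6 CPM) and Lox (330 CPM). WT replicate 23 was high for Adgrg2 (15.7 CPM) and low for H2-K1 (1191 CPM). The epididymis sum of KO replicate 21 was 46.4 CPM, against 0.641 to 4.27 CPM in the other KO libraries. The testis and sperm sum of WT replicate 6 was 84.5 CPM, against 0.558 to 3.63 CPM in the other WT libraries.

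For 16 of the 80 named genes the genotype effect differed between eWAT and liver by the edgeR test of the difference, against 2.02% of all genes. Many of the 80 were named for their change in eWAT, which is a part of this contrast and raises their share. As eWAT minus liver on the log2 scale, immune and antigen presentation genes had negative differences: Fcgr4 -3.48, Slc15a3 -2.95, Il1rn -2.93, Tlr13 -2.83, Cd300c2 -2.26, Ctss -2.23, H2-Ab1 -2.13, C1qb -1.58, H2-K1 -1.22 and Ctsl -0.92. Positive differences were found for Adgrg2 (2.83), Dennd2d (1.94), Sfxn1 (1.56), Aldh6a1 (1.05), Scd1 (1.04) and Insr (0.86). Adjusted p-values of the 16 ran from 0.00785 to 0.0483.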

How the results depend on the processing

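The count of 111 called genes was within 1.5 times under RLE scaling (112), no filter on low counts (130) and at least 1 CPM in 4 libraries (145), and shared 110, 98 and 111 genes with them. It was 713 by DESeq2, 0 in the 8 libraries alone, and 1 to 238 without 1 library, as given by library in the report. The housing interaction called 0 genes in edgeR (1439 at an unadjusted p under 0.05), 10 by DESeq2, and 0 to 4 without 1 library (4 without WT replicate 23 at thermoneutrality, 1 without KO replicate 9 at room temperature). The count of 412 genes differing between eWAT and liver was 1189 by DESeq2, 242 with no filter, and 60 to 402 without 1 library. It was 147, 109, 115, 60 and 226 without eWAT KO replicates 21, 3 and 5 and WT replicates 6 and 7, and 102, 236 and 205 without liver KO replicate 4 and WT replicates 1 and 6. The count of 1 for eWAT against BAT was 59 by DESeq2 and 0 to 3 without 1 library. The cause of these differences was not tested. With a replicate block the counts were 14 against liver and 0 against BAT. Same-numbered libraries of different tissues had correlations of -0.140 to 0.0949 over 16 pairs, none over 0.1. Differently numbered libraries ran from -0.265 to 0.199, a range that holds all of these. The correlations therefore cannot tell whether a shared number marks the same animal, and the labels do not say.

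Of 1040 repeats for the 80 named genes 670 kept their direction and side of the threshold and 346 no longer passed. Only genes called in the main fit can stop passing, so the 346 are a larger share of the repeats of called genes than of 1040. Genes that were not called make up many of the repeats that kept their side. The 15 that turned sign were in genes that were not called, each without 1 library. Their changes ran from -0.11 to 0.12 for Adipoq, from -0.070 to 0.049 for Scd1, from -0.18 to 0.020 for Npr3, from -0.015 to 0.057 for Atp5a1, from -0.012 to 0.20 for Hibadh, from -0.14 to 0.025 for Abca1, from -0.43 to 0.066 for Ighm and from -0.37 to 0.18 for Ifi27l2a. Otop1 rests on under 1 CPM in every KO library.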
